A study of Homo sapiens with 34 samples.

Results

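The clustered protocadherins are 53 protein-coding genes on the long arm of chromosome 5, taken here as every GENCODE protein-coding gene on that chromosome whose symbol begins with PCDHA, PCDHB or PCDHG, out of 19970 protein-coding genes in all. They comprised 15 PCDHA genes (PCDHA1 to PCDHA13, PCDHAC1 and PCDHAC2), 16 PCDHB genes and 22 PCDHG genes (12 PCDHGA, 7 PCDHGB and PCDHGC3 to PCDHGC5). All 53 lie on the plus strand, between positions 140786136 and 141512977 of chromosome 5 in hg38, a span of 727 kb. Their occupancy by RBPJ and SOX2 was read from ChIP-seq, in which DNA bound by a protein is precipitated and sequenced. The cells were MB157, a triple-negative breast cancer line whose growth depends on NOTCH, and MB157R, derived from MB157 by 25 weeks in 1 µM of the γ-secretase inhibitor LY3039478. Every cell population compared carried a doxycycline-inducible lentiviral vector and received 1 µg/ml doxycycline for 72 h. The vector encoded NOTCH1 without its extracellular domain in MB157R iN1-ICD and HA-tagged SOX2 in MB157 iSOX2, and was empty in MB157R iEV and MB157 iEV. There were 34 libraries, of which 22 were immunoprecipitations in 8 groups and 12 were inputs. Each group of immunoprecipitations held 3 libraries, except that the HA control (HA in MB157 iEV) had 1. RBPJ was precipitated in all 4 cell populations, SOX2 in the MB157R populations, and the HA tag in the MB157 populations. The list from the HA immunoprecipitation of MB157 iSOX2 is called HA-SOX2.

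Clustered protocadherins are cadherin-like adhesion proteins best known from neurons, in which each cell makes its own combination of isoforms and uses it to tell itself from its neighbors. Each PCDHA and PCDHG gene has a variable first exon with its own promoter, which encodes the extracellular part and is spliced to constant exons that all genes of the group share. PCDHB genes consist of 1 exon. The first exons are chosen through looping between their promoters and distant enhancers with CTCF and cohesin, and the C-type isoforms (PCDHAC1, PCDHAC2 and PCDHGC3 to PCDHGC5) are made more constitutively than the others. Several clustered protocadherins are cut by ADAM10 and then by γ-secretase, the protease that also releases the NOTCH intracellular domain. That domain has no DNA-binding part of its own and acts through RBPJ, which binds DNA. SOX2 is best known for its roles in stem cells and neural progenitors.

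A peak summit is the position of highest signal within a peak. A promoter summit lay within 1 kb of the transcription start site (TSS), and a first-exon summit lay within the first exon. Fold is the enrichment that the authors' peak caller gave for the summit, relative to background estimated from input. The libraries of each group were pooled before peak calling, so each condition has 1 list without a spread between replicates, and no difference between lists could be tested against one. The intervals given cover counting error only. The 4 RBPJ lists held 37297 (MB157R iN1-ICD), 46601 (MB157R iEV), 34521 (MB157 iSOX2) and 25243 peaks (MB157 iEV). The SOX2 lists held 323 peaks in MB157R iN1-ICD and 37963 in MB157R iEV, the HA-SOX2 list held 108203 and the HA control 77. The genome background, meaning the fragments expected at a summit without enrichment, ranged from 1.60 to 2.24 in the first 7 of these lists and was 0.524 in the HA control. The fewest fragments at any called summit were 8.

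RBPJ occupied few clustered protocadherin promoters, and in MB157R cells fewer than in MB157 cells. A promoter summit was found at 2 of 53 members in MB157R iN1-ICD, against 45.6% of all protein-coding genes, and at 2 of 53 in MB157R iEV, against 59.6% of all genes. It was found at 8 of 53 members in MB157 iSOX2 (53.6% of all genes) and at 7 of 53 in MB157 iEV (40.3% of all genes). The members' shares were thus 3.77%, 3.77%, 15.1% and 13.2%. SOX2 had no promoter summit at any member in MB157R iN1-ICD (0.0801% of all genes) and 1 in MB157R iEV (22.9% of all genes). HA-SOX2 had promoter summits at 11 of 53 members, a share of 20.8%, against 35.3% of all genes, and the HA control at none (0.0601% of all genes). In every list with over 1000 peaks, the share of members lay below that of all genes. The HA-SOX2 list is by far the longest. With every longer list cut to its 25243 peaks of lowest q, HA-SOX2 remained at 1 member promoter. RBPJ was then at 7 in MB157 iSOX2 and 7 in MB157 iEV. The share of all genes under this cut was not computed, so these counts have no background beside them.

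**Figure D1:**
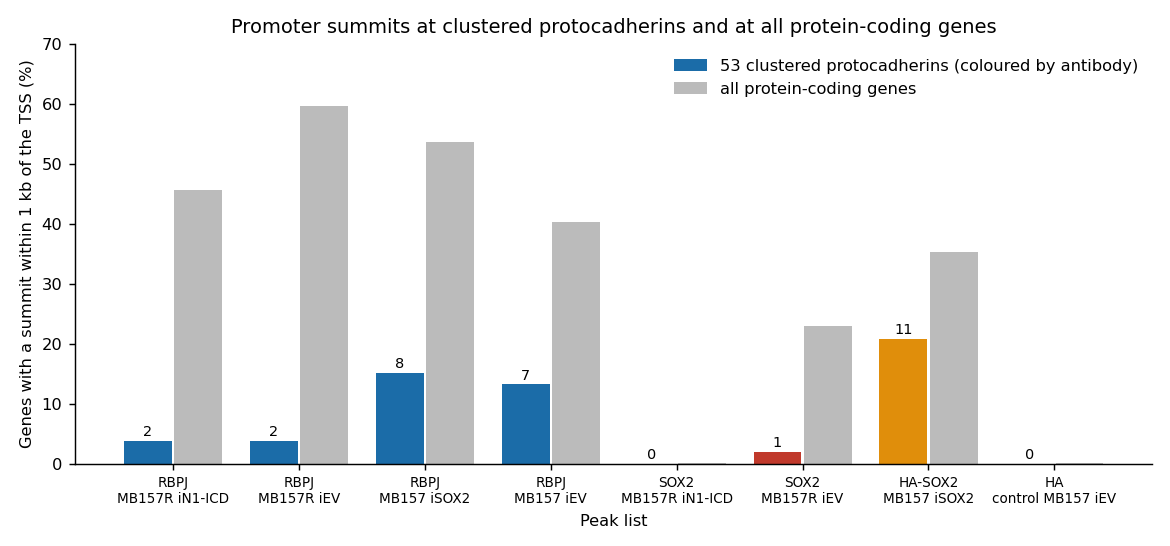
Share of genes with a summit within 1 kb of the TSS (%), in each of the 8 peak lists. Coloured bars give the 53 clustered protocadherins, with the number of genes above each bar, and grey bars give all 19970 protein-coding genes. The members' bars stand at 3.77%, 3.77%, 15.1% and 13.2% for RBPJ, beside grey bars of 45.6%, 59.6%, 53.6% and 40.3%.

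First exons of the members are long, with a median of 2601 bp (range 2470 to 7973 bp) against a median of 185 bp over all protein-coding genes, and gave a different relation to the background. In the RBPJ lists a first-exon summit was found at 1 member in MB157R iN1-ICD (7.86% of all genes) and at 2 members in MB157R iEV (11.3% of all genes). It was found at 9 members in MB157 iSOX2 (10.9% of all genes) and at 9 in MB157 iEV (7.49% of all genes), a share of 17% in each. SOX2 had none in MB157R iN1-ICD (0.01% of all genes) and 2 in MB157R iEV (3.17% of all genes). HA-SOX2 had 7 (5.58% of all genes) and the HA control none (0% of all genes). Only 455 protein-coding genes, all 53 members among them, had a first exon of at least 2 kb. Of these 455, 17.6%, 27.5%, 29.2% and 22.2% held an RBPJ summit in the first exon in MB157R iN1-ICD, MB157R iEV, MB157 iSOX2 and MB157 iEV. Against these 455 genes, the members' share was therefore lower in all 4 RBPJ lists, with the smallest gap in MB157 iEV (17% against 22.2%). It was also lower for SOX2 in MB157R iEV (3.77% against 6.81%) and for HA-SOX2 (13.2% against 16.5%).

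Of the 53 members, 17 had a promoter or first-exon summit in at least 1 list, a share of 32.1%, against 71% of all protein-coding genes. The 36 without any were 11 PCDHA genes, 11 PCDHB genes, 8 PCDHGA genes, 4 PCDHGB genes and PCDHGC4 and PCDHGC5. RBPJ was found at 2 members in MB157R cells, PCDHGB6 and PCDHGC3 (62% of all genes), and at 12 in MB157 cells (57.2% of all genes). PCDHGC3 was the only member with RBPJ in both lines, as 50.7% of all genes were. The other 11, in MB157 alone as 6.52% of all genes were, comprised PCDHAC1, PCDHAC2, PCDHB1, PCDHB3, PCDHB6, PCDHB9, PCDHGA1, PCDHGA7, PCDHGA8, PCDHGB2 and PCDHGB5. Of the 53 members, 6 (11.3%) were called in both MB157 lists (PCDHAC1, PCDHAC2, PCDHB1, PCDHGA7, PCDHGA8 and PCDHGC3), against 36.9% of all genes. No variable PCDHA gene (PCDHA1 to PCDHA13) had an RBPJ summit in any list.

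**Figure D2:**
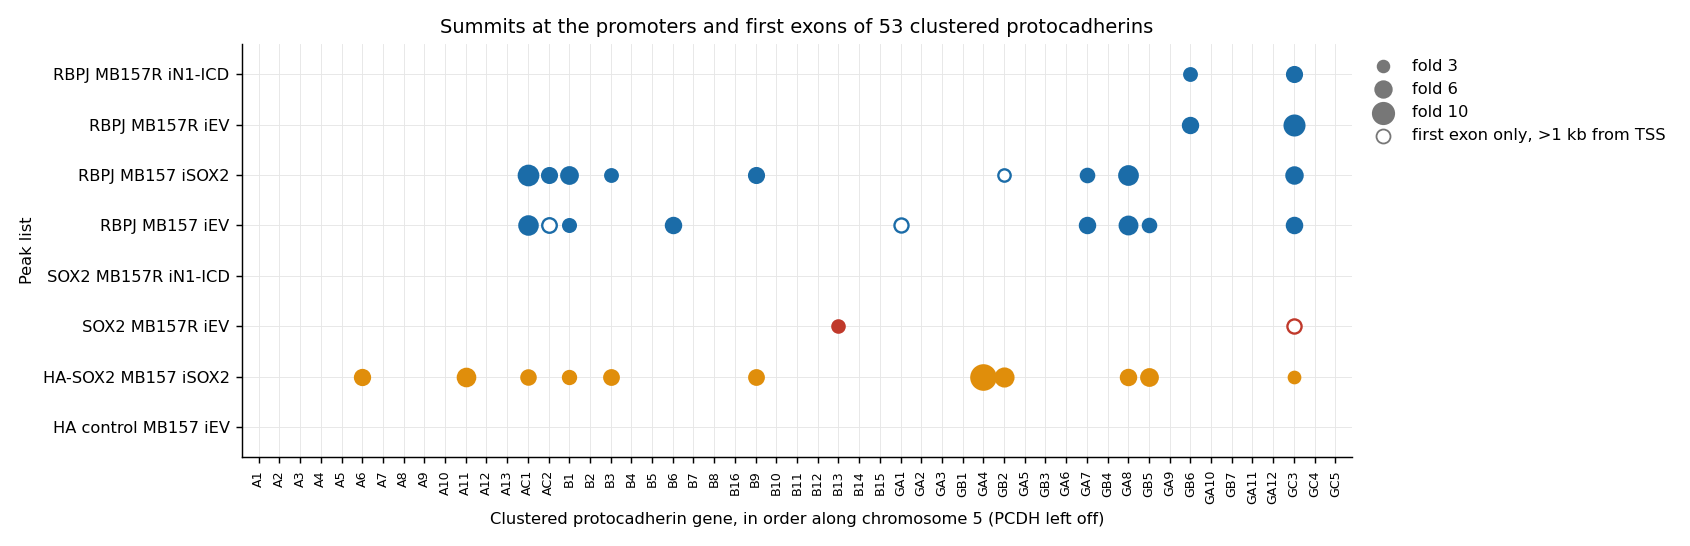
Each row is a peak list and each column 1 of the 53 members in order along the chromosome. The area of a point is proportional to the fold at the summit, filled for a summit within 1 kb of the TSS and open for a summit in the first exon further from the TSS. RBPJ points in the MB157 rows stand at 9 members each and in the MB157R rows at PCDHGB6 and PCDHGC3 alone.

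PCDHGC3, a C-type isoform gene of the γ group, was the member occupied in most lists. RBPJ lay at its promoter with a fold of 4.79 in MB157R iN1-ICD, 8.50 in MB157R iEV, 5.70 in MB157 iSOX2 and 5.04 in MB157 iEV. These rested on 17 (95% Poisson interval 9.90 to 27.2), 23 (14.6 to 34.5), 25 (16.2 to 36.9) and 17 fragments (9.90 to 27.2), so the 4 counts overlapped within their intervals. The peak of MB157R iEV (141475614 to 141477209) and those of MB157 iSOX2 (141475858 to 141477172) and MB157 iEV (141475644 to 141477314) covered much the same stretch, with the summit at different places in it. The strongest promoter summit lay 126 bp before the TSS in MB157R iN1-ICD and 88 bp after it in MB157R iEV, against 642 bp after it in MB157 iSOX2 and 881 bp after it in MB157 iEV. MB157R iN1-ICD had a further summit 693 bp after the TSS with a fold of 4.36 (11 fragments). All 4 lists also had a summit further along the first exon, with folds of 5.08, 5.67, 3.45 and 4.60 in the same order. SOX2 in MB157R iEV was called there too, 2578 bp after the TSS, with a fold of 4.39 (12 fragments, 6.20 to 21.0), and not in MB157R iN1-ICD. HA-SOX2 lay 895 bp after the TSS with a fold of 2.83 (15 fragments).

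The stretch around the strongest PCDHGC3 promoter summit of MB157R iN1-ICD is shown because PCDHGC3 was the only member with RBPJ in both lines. Within 500 bp of this summit, RBPJ had a summit in MB157R iEV and in neither MB157 list. The further summit of MB157R iN1-ICD, 693 bp after the TSS, lay less than 500 bp from the promoter summits of both MB157 lists. An RBPJ motif lay within 100 bp of that further summit and of the MB157 iSOX2 summit. The stretch around the strongest summit holds none of the 4 motifs searched (RBPJ, SOX, AP-1 and the CTCF core). This and the following sequences are from hg38 and run 5′ to 3′ on the strand named.
PCDHGC3 promoter (chr5:141475740-141475940, plus strand): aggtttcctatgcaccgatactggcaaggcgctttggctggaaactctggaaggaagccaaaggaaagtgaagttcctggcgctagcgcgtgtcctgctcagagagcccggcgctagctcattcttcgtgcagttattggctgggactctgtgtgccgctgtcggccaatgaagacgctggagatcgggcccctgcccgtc

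PCDHGB6, a variable γ gene, was the other member with RBPJ in MB157R cells and was not called in MB157. Its fold was 3.42 in MB157R iN1-ICD (11 fragments, 5.49 to 19.7) and 4.94 in MB157R iEV (14 fragments, 7.65 to 23.5), with summits 22 bp before and 27 bp after the TSS.

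PCDHAC1 and PCDHGA8 had the highest RBPJ folds among members in both MB157 lists. At PCDHAC1, a C-type gene of the α group, the fold was 8.21 in MB157 iSOX2 (37 fragments, 26.1 to 51.0) and 7.27 in MB157 iEV (25 fragments, 16.2 to 36.9). At PCDHGA8 it was 7.41 in MB157 iSOX2 (25 fragments, 16.2 to 36.9) and 6.71 in MB157 iEV (23 fragments, 14.6 to 34.5). Within each gene the intervals of the lists overlapped, and neither gene was called in MB157R. PCDHGA7 had folds of 3.85 in MB157 iSOX2 and 4.99 in MB157 iEV. PCDHB1, the first gene of the β group, had 5.90 in MB157 iSOX2 and 3.51 in MB157 iEV. PCDHAC2 had 4.74 in MB157 iSOX2 and 4.63 in MB157 iEV, where the summit lay 1002 bp after the TSS, just outside the promoter window and inside the first exon. PCDHB9 (4.77) and PCDHB3 (3.43) were called in MB157 iSOX2 and not in MB157 iEV, and PCDHB6 (4.99) the other way round.

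SOX2 in MB157R cells was found at few members. In MB157R iEV it had a summit at PCDHGC3, given above, and at PCDHB13, 204 bp after the TSS with a fold of 3.28 (10 fragments, 4.80 to 18.4). Of the list's peaks, 94% had a fold at least as high as that at PCDHB13. In MB157R iN1-ICD no member was called. HA-SOX2 in MB157 iSOX2 was found at PCDHGA4 with a fold of 12.9 (50 fragments, 37.1 to 65.9), 748 bp before the TSS. It followed at PCDHGB2 (6.92), PCDHA11 (6.54), PCDHGB5 (5.90) and PCDHGA8 (5.00), and the other 6 members lay between 2.83 and 4.88. PCDHA6 and PCDHA11 were the only variable PCDHA genes with a summit in any list.

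The sequence at PCDHGA4 is shown because it carried the highest fold at a member in any list. Capitals mark the SOX motif, which is A or T, A or T, CAA, A or T, then G, read on either strand.
PCDHGA4 promoter (chr5:141354173-141354373, plus strand): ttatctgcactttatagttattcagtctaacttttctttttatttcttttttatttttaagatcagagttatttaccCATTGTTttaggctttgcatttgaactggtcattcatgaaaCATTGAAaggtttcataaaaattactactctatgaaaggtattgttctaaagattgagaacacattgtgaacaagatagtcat

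RBPJ and SOX2 were then compared within the same cells. In MB157R iEV, RBPJ and SOX2 both had a promoter or first-exon summit at 1 member, PCDHGC3 (21.7% of all genes), with PCDHGB6 occupied by RBPJ alone (38.1% of all genes) and PCDHB13 by SOX2 alone (1.32% of all genes). In MB157 iSOX2, RBPJ and HA-SOX2 both had a promoter summit at 6 members, PCDHAC1, PCDHB1, PCDHB3, PCDHB9, PCDHGA8 and PCDHGC3, against 29.6% of all genes. With first exons counted, PCDHGB2 made 7 (29.7% of all genes). RBPJ alone was found at PCDHAC2 and PCDHGA7 (24% of all genes). HA-SOX2 alone was found at PCDHA6, PCDHA11, PCDHGA4 and PCDHGB5 (5.81% of all genes). The summits of the 2 proteins at a shared gene were 298 bp apart at PCDHAC1, 325 bp at PCDHB1, 743 bp at PCDHB3, 201 bp at PCDHB9, 516 bp at PCDHGA8 and 253 bp at PCDHGC3. At PCDHB1, PCDHB3 and PCDHB9, HA-SOX2 lay 50 to 60 bp before the TSS, and RBPJ 151 to 683 bp after it.

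Across the cluster with 50 kb to each side (827 kb), RBPJ had 9 summits in MB157R iN1-ICD, 10 in MB157R iEV, 22 in MB157 iSOX2 and 21 in MB157 iEV. SOX2 had 1 in MB157R iN1-ICD and 8 in MB157R iEV. HA-SOX2 had 36 and the HA control 0. The RBPJ density was 10.9 and 12.1 summits per Mb in MB157R iN1-ICD and MB157R iEV, against 12.3 and 15.4 per Mb over the genome. It was 26.6 and 25.4 per Mb in MB157 iSOX2 and MB157 iEV, against 11.4 and 8.33 per Mb over the genome. With peaks of a −log10 q of at least 5 alone, the RBPJ summits numbered 6 in MB157R iN1-ICD and 9 in MB157R iEV, against 12 in MB157 iSOX2 and 11 in MB157 iEV. In the 2 Mb on each side of this region, RBPJ had 93 and 129 summits in MB157R iN1-ICD and MB157R iEV. It had 90 and 68 there in MB157 iSOX2 and MB157 iEV. The densities were 23.25, 32.25, 22.5 and 17 per Mb in the same order, above the genome density of each list. SOX2 density in MB157R iEV was 9.68 per Mb (12.5 over the genome) and HA-SOX2 density was 43.5 per Mb (35.7 over the genome).

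The input background at these summits differed between the lines as well. At the region's RBPJ summits the median background was 1.71 times the genome background in MB157 iSOX2 and 1.43 times in MB157 iEV. It was 1.00 times in MB157R iN1-ICD and in MB157R iEV, which is the lowest value the peak caller can use. For HA-SOX2 it was 1.52 times and for SOX2 in MB157R iEV 1.03 times. The 2 Mb to each side showed nearly the same contrast, with 1.00 and 1.12 times in MB157R iN1-ICD and MB157R iEV against 1.61 and 1.53 times in MB157 iSOX2 and MB157 iEV. The number of DNA copies of the region in each line was not measured, and its part in the lower count of MB157R was not tested.

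Summits of all lists less than 500 bp from a neighbor were joined into 56 sites. RBPJ was found at 33 of them, at 12 in MB157R cells and at 27 in MB157 cells, with 6 in common. Of 21 sites of MB157 alone, 10 were called in both MB157 lists. Their folds ranged from 3.49 to 8.21. Sites were not joined over the rest of the genome, so these site counts have no background beside them. Before PCDHGC3, RBPJ had 2 summits in MB157R iN1-ICD and 4 in MB157R iEV, against 13 in MB157 iSOX2 and 13 in MB157 iEV. From the PCDHGC3 promoter onward the counts were 7, 6, 9 and 8 in the same order.

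**Figure D3:**
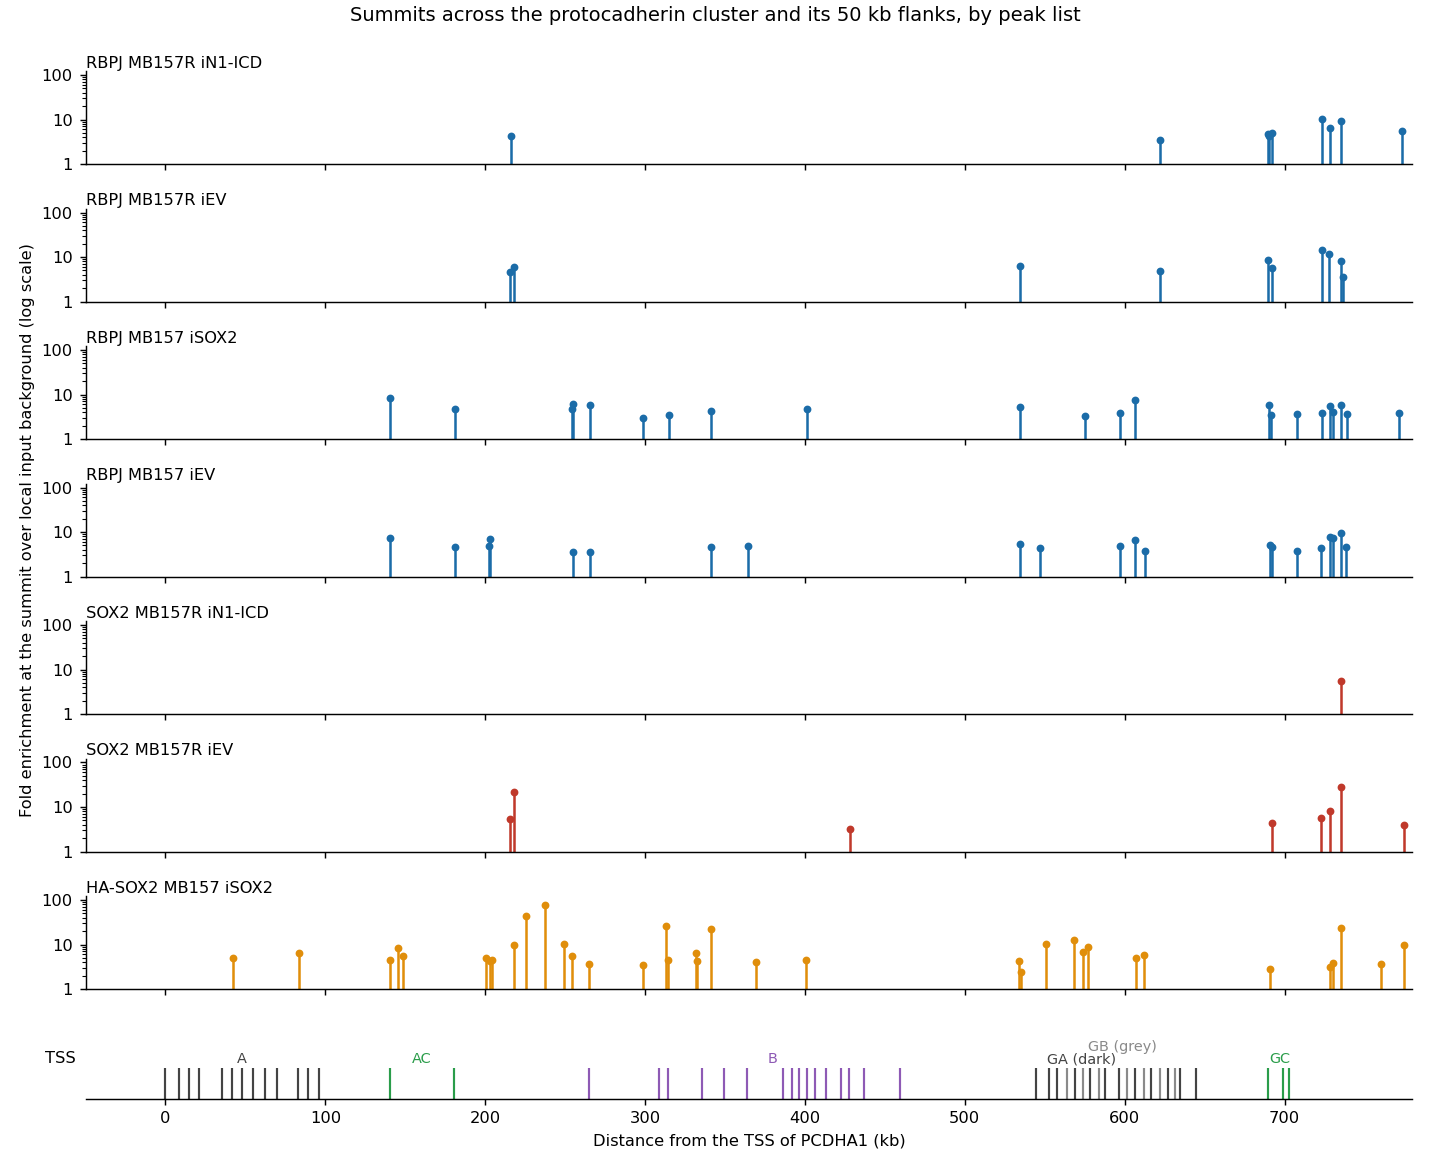
Fold at each summit (log scale) by distance from the TSS of PCDHA1 (kb), in the 7 lists with a summit in the region, with the TSS of each member in the lowest panel. Before the PCDHGC3 promoter the RBPJ panels hold 2 and 4 summits in MB157R iN1-ICD and MB157R iEV, against 13 in each MB157 panel, and all 4 fill the end after PCDHGC3.

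In MB157R iN1-ICD, MB157R iEV and MB157 iEV the strongest RBPJ summit of the region lay at this end, outside any member promoter, whereas in MB157 iSOX2 it was that of PCDHAC1. In the third intron shared by all PCDHG genes, RBPJ had a fold of 10.5 in MB157R iN1-ICD (28 fragments, 18.6 to 40.5) and 14.5 in MB157R iEV (40 fragments, 28.6 to 54.5). The fold was 3.80 in MB157 iSOX2 (13 fragments, 6.92 to 22.2) and 4.45 in MB157 iEV (14 fragments, 7.65 to 23.5). The interval of MB157R iEV lay above those of both MB157 lists, while that of MB157R iN1-ICD overlapped them. SOX2 in MB157R iEV had a fold of 5.74 there. Because the intron belongs to every PCDHG transcript, the site cannot be given to 1 of these genes. Another site lay 1.06 to 1.66 kb past the end of the PCDHG genes, with RBPJ folds of 6.57, 11.7, 5.59 and 7.91 in MB157R iN1-ICD, MB157R iEV, MB157 iSOX2 and MB157 iEV. SOX2 had 8.11 there in MB157R iEV and HA-SOX2 3.16. In the last exon of DIAPH1, 3.28 kb past the PCDHG genes, RBPJ had a fold of 7.43 in MB157 iEV (25 fragments, 16.2 to 36.9) and was not called in MB157R. Between the α and β groups, 10.2 kb before PCDHB1, it had a fold of 6.30 in MB157 iSOX2 (30 fragments, 20.2 to 42.8) and was likewise not called in MB157R.

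A further site was the only one of the 56 occupied in every list but the HA control. It lay 8.37 to 8.47 kb past the PCDHG genes in intron 27 of DIAPH1, a formin that assembles actin filaments. SOX2 reached a fold of 27.7 there in MB157R iEV (81 fragments, 64.3 to 101), rank 100 of 37963 peaks. In MB157R iN1-ICD it was the only SOX2 summit of the region, with a fold of 5.47 on 14 fragments (7.65 to 23.5), an interval below that of MB157R iEV at a genome background of 1.74 fragments against 1.96. HA-SOX2 had a fold of 23.4 (145 fragments, 122 to 171). RBPJ had folds of 9.44 in MB157R iN1-ICD, 8.15 in MB157R iEV, 5.86 in MB157 iSOX2 and 9.45 in MB157 iEV, with overlapping intervals. In MB157R iEV the RBPJ and SOX2 summits were 10 bp apart, and in MB157 iSOX2 the RBPJ and HA-SOX2 summits 23 bp apart.

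In the third intron shared by the PCDHA genes lay the other strong SOX2 site. SOX2 had a fold of 21.6 in MB157R iEV (65 fragments, 50.2 to 82.8), rank 342 of the list, and was not called in MB157R iN1-ICD. HA-SOX2 had a fold of 9.58 and RBPJ 5.91 in MB157R iEV, 109 bp from the SOX2 summit. RBPJ was not called there in MB157R iN1-ICD, MB157 iSOX2 or MB157 iEV.

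Some strong HA-SOX2 summits had no counterpart in any other list. One of them lay in the last constant exon of the PCDHA genes with a fold of 44.1 (171 fragments, 146 to 199). Another lay 1074 bp before the TSS of PCDHB3, just outside its promoter window, with a fold of 26.3 (96 fragments, 77.8 to 117).

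**Figure D4:**
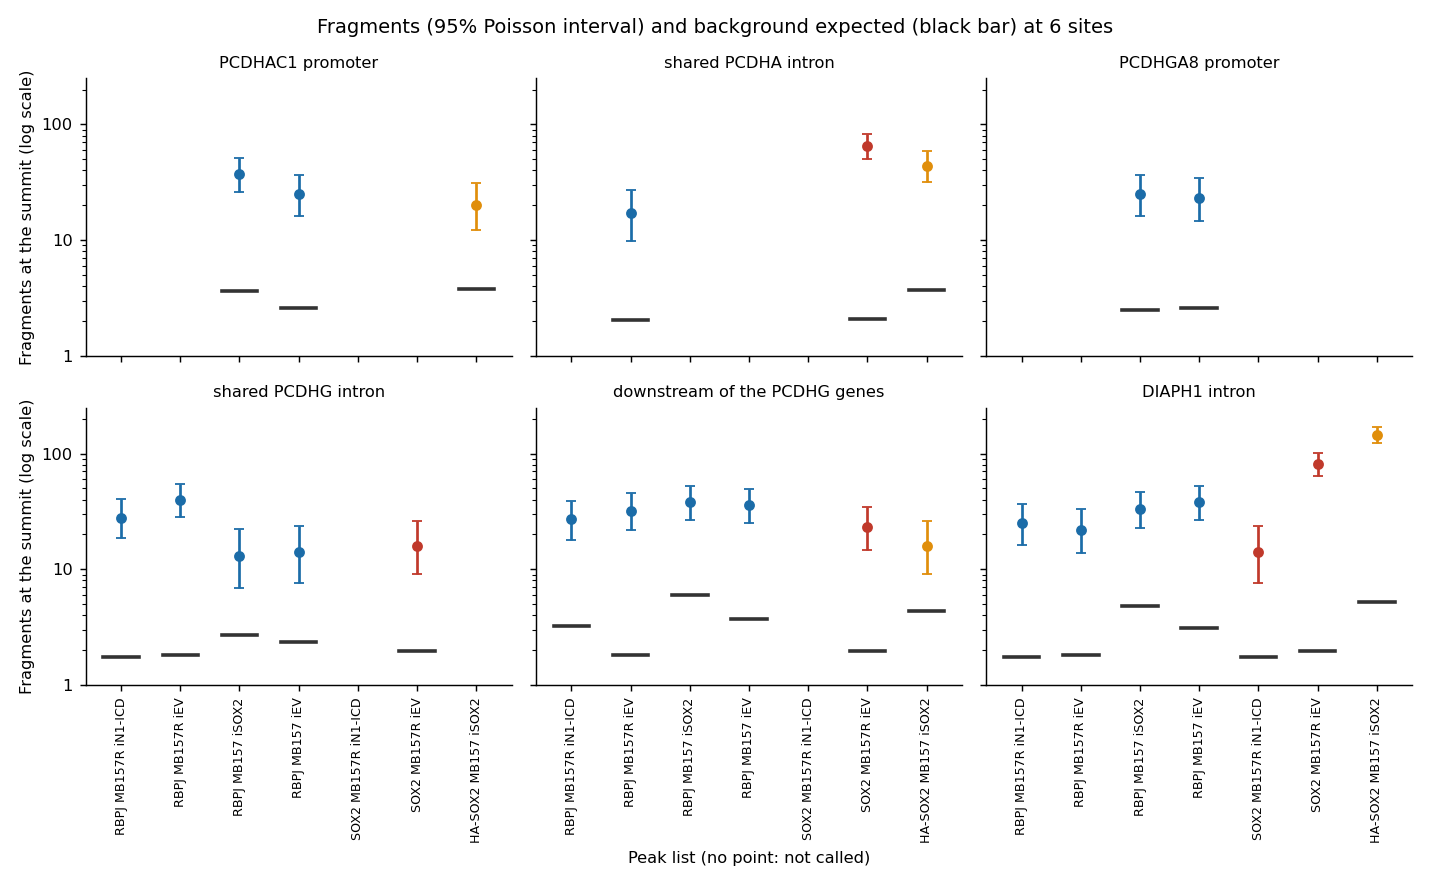
Fragments at the summit (log scale, points with 95% Poisson intervals) and the background expected there (black bars) at 6 sites of the cluster, by peak list, where an empty position means that no summit was called within the site. In the DIAPH1 intron SOX2 has 14 fragments in MB157R iN1-ICD against 81 in MB157R iEV, and the PCDHAC1 and PCDHGA8 promoters carry RBPJ in the MB157 lists alone.

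The 3 stretches below are 201 bases around strong SOX2 and RBPJ summits of MB157R iEV. They are shown because the other protein had a summit less than 500 bp away. The DIAPH1 and PCDHA stretches are centered on SOX2 summits, with RBPJ 10 bp and 109 bp away. The PCDHG stretch is centered on an RBPJ summit, and the SOX2 summit, 342 bp away, lies outside it. Capitals mark a SOX motif or an AP-1 motif (TGACTCA or TGAGTCA, the sites of FOS and JUN proteins). The DIAPH1 stretch holds 1 SOX motif and 2 AP-1 motifs, and the PCDHA intron stretch 1 AP-1 motif. The PCDHG intron stretch, around the strongest RBPJ summit, holds none of the 4 motifs searched.
DIAPH1 intron (chr5:141521336-141521536, plus strand): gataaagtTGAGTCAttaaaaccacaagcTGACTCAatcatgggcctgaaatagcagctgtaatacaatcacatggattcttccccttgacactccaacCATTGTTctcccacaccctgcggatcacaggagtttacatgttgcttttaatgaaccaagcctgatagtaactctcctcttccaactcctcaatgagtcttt
PCDHA shared intron (chr5:141004176-141004376, plus strand): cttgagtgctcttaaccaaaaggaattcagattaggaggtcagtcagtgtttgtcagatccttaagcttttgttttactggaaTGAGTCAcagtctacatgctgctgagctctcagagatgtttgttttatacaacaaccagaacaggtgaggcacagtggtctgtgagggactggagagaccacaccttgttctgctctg
PCDHG shared intron (chr5:141509193-141509393, plus strand): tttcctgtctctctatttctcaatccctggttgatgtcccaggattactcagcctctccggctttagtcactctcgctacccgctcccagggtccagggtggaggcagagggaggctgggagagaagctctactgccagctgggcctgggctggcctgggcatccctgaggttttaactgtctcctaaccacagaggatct

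Co-localization means here a summit of the other protein less than 500 bp away. In MB157R iEV, 6 of 10 RBPJ summits of the region lay near a SOX2 summit (60%, exact binomial 95% interval 26.2% to 87.8%), against 46.4% over the genome, and 6 of 8 SOX2 summits near an RBPJ summit (75%, 34.9% to 96.8%), against 57.0%. In MB157 iSOX2, 11 of 22 RBPJ summits lay near an HA-SOX2 summit (50%, 28.2% to 71.8%), against 47.1%. Of the 36 HA-SOX2 summits, 12 lay near an RBPJ summit (33.3%, 18.6% to 51.0%), against 15.0%. This interval takes the summits as independent, but the HA-SOX2 summits at the TAF7 promoter lay near the same RBPJ summit. The RBPJ density in MB157 iSOX2 was also higher in the region (26.6 per Mb) than over the genome (11.4 per Mb). Within 250 bp, or at a −log10 q of at least 5, the count was 7. Whether the share exceeded that of the genome was not tested.

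Between lists of the same antibody, 15 of 21 RBPJ summits of MB157 iEV were called again in MB157 iSOX2 (71.4%, 47.8% to 88.7%; 68.5% over the genome). In MB157R iN1-ICD, 6 of 10 RBPJ summits of MB157R iEV were called again (60%, 26.2% to 87.8%), against 56.3% over the genome. Between the lines, 4 of 21 RBPJ summits of MB157 iEV were called again in MB157R iEV (19.0%, 5.45% to 41.9%), against 48.6% over the genome. Counted by any overlap of peak regions, 6 of the 21 were called again, and the genome share by overlap was not computed. Of the 8 SOX2 summits of MB157R iEV, 1 was called again in MB157R iN1-ICD (12.5%, 0.316% to 52.7%), where over the genome 0.796% were. HA-SOX2 in MB157 iSOX2 was near 4 of those 8 (50%, 15.7% to 84.3%), against 34.7% over the genome.

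The promoters of the members differ in base composition from those of most genes. From 250 bases before the TSS to 50 after it, their median GC content was 39.3%, against 63.7% over all protein-coding genes, and the median ratio of observed to expected CpG was 0.593 against 0.776. The 5 C-type genes stood apart with 55.7% to 66% GC, while the other 48 members ranged from 32.3% to 50%. Of the 5 C-type genes, 3 had an RBPJ promoter or first-exon summit in MB157 (PCDHAC1, PCDHAC2 and PCDHGC3), where 57.2% of all genes did. In MB157R, where 62% of all genes did, PCDHGC3 alone had one. PCDHGC4 and PCDHGC5 had none in either line. The 17 members with a summit in any list had a median GC content of 42%, against 38.5% in the 36 without.

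**Figure D5:**
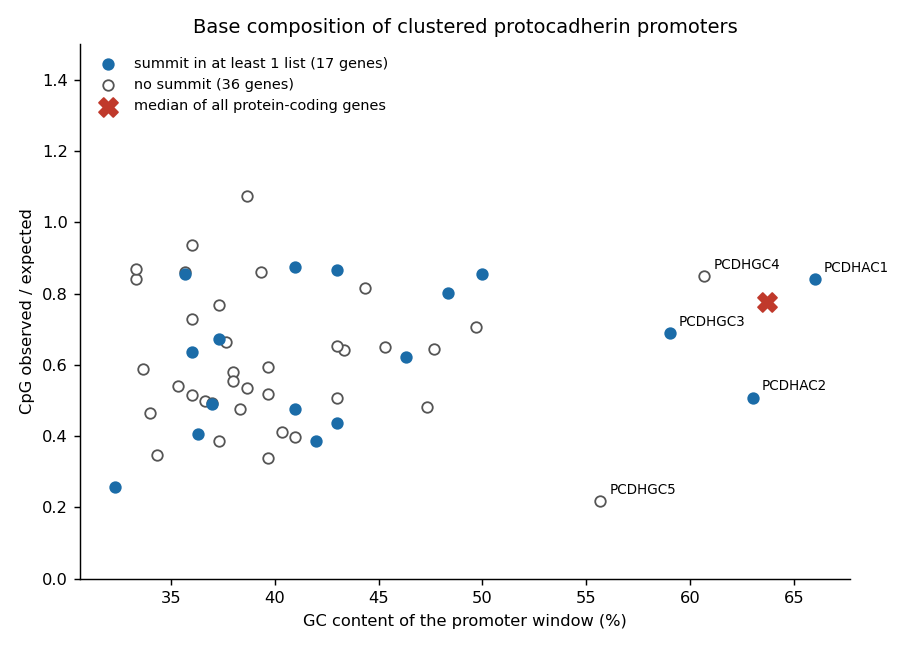
GC content (%) and ratio of observed to expected CpG in the 300 bases around the TSS of each of the 53 members, filled in blue where the gene had a summit in at least 1 list, with the median of all protein-coding genes as a cross. The 5 C-type genes lie between 55.7% and 66% GC, to the right of the other 48, and include filled and open points.

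RBPJ motifs (TGTGGGAA, TGTGAGAA, CGTGGGAA or CGTGAGAA, either strand) were in none of the 53 members' 300-base promoters, against 3.48% of all protein-coding genes. Within 1000 bases of the TSS on each side the direction turned, with such a motif at 15 members (28.3%), against 23.8% of all genes. Of the 53 promoters of 300 bases, 20 held a SOX motif (37.7%), against 15.0% of all genes, and 1 an AP-1 motif (1.89%), against 3.58%. The CTCF core (C or T, AG, A or G, G or T, GGC, then A or G) was in none of the 300-base promoters, against 9.91% of all genes. All motifs were matched exactly, so a binding site that differs from these letters is missed. The SOX motif was in the promoters of 16 of the 36 members without a summit in any list, of either protein. It was in those of 4 of the 17 members with a summit.

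Within 100 bp of the summits, the RBPJ motif was found at 2 of 9 RBPJ summits of the region in MB157R iN1-ICD (12.0% over the genome), 0 of 10 in MB157R iEV (9.40%), 3 of 22 in MB157 iSOX2 (12.2%) and 5 of 21 in MB157 iEV (13.9%). The SOX motif was found at 3 of 8 SOX2 summits in MB157R iEV (34.3% over the genome) and at 18 of 36 HA-SOX2 summits (51.9%). Some RBPJ motifs near RBPJ summits of the region lay in the third intron shared by the PCDHA genes. The summits there were of MB157 iEV, with folds of 4.86 and 6.82, and these motifs are not shown. In first exons of members lay 5 RBPJ motifs near RBPJ summits. These 5 are shown with 10 bases to each side, with the motif in capitals, because summit and motif met there within a first exon. Those of PCDHGA8 and PCDHGC3 lay within 100 bp of RBPJ summits of 2 lists each, MB157 iSOX2 and MB157 iEV for PCDHGA8 and MB157R iN1-ICD and MB157 iSOX2 for PCDHGC3.
PCDHAC2, 967 bases after the TSS (chr5:140967443-140967450, minus strand): catccacggcTGTGAGAAccaggtggtg
PCDHB3, 659 bases after the TSS (chr5:141101132-141101139, plus strand): aggacttggaTGTGGGAAgaaacagcct
PCDHGA1, 2429 bases after the TSS (chr5:141332943-141332950, minus strand): agggagacctCGTGGGAAtaggtctgca
PCDHGA8, 248 bases after the TSS (chr5:141392881-141392888, plus strand): ctgggaacgcTGTGGGAAatcgggaggg
PCDHGC3, 639 bases after the TSS (chr5:141476605-141476612, plus strand): acgatcccgaTGTGGGAAgcaactcttt

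First exons of neighboring members can be nearly alike, so reads may fail to map to 1 place. Of all 60-base words of the region, 2.32% occurred in it more than once. In first exons the median share of such words was 7.99% for the 17 members with a summit (highest 26.3%) and 8.75% for the 36 without (highest 42.5%). The effect on the calls was not tested.

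The counts of related genes stand here beside the shares of all genes given above for each list, 45.6%, 59.6%, 53.6% and 40.3% for RBPJ in MB157R iN1-ICD, MB157R iEV, MB157 iSOX2 and MB157 iEV, 22.9% for SOX2 in MB157R iEV and 35.3% for HA-SOX2. TAF7, a gene within the cluster that encodes a subunit of TFIID, had an RBPJ promoter summit in MB157R iEV (6.38), MB157 iSOX2 (5.14) and MB157 iEV (5.40) and none in MB157R iN1-ICD. SLC25A2, a mitochondrial carrier gene that also lies within the cluster, had none in any list. Of 12 non-clustered protocadherin genes, RBPJ had a promoter summit at 4 in MB157R iN1-ICD, 4 in MB157R iEV, 6 in MB157 iSOX2 and 5 in MB157 iEV, HA-SOX2 at 3, and SOX2 in MB157R iEV at none. PCDH1 and PCDH10 were in all 4 RBPJ lists. Of 16 genes for regulators of the cluster, such as CTCF, cohesin subunits and the silencing factor SMCHD1, RBPJ was at 9, 14, 11 and 9 in the same order, SOX2 in MB157R iEV at 5 and HA-SOX2 at 8. Of 17 genes for processing and signaling partners, such as ADAM10, the γ-secretase subunits and the WAVE complex, RBPJ was at 13, 15, 14 and 11, SOX2 in MB157R iEV at 9 and HA-SOX2 at 7. ADAM10 had a promoter summit in all 4 RBPJ lists, in SOX2 of MB157R iEV and in HA-SOX2.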

How the data were processed

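RBPJ, SOX2 and HA ChIP-seq peaks were analysed in MB157 and MB157R cells. Per the submitters' processing notes and the methods of the study, the authors used BWA for alignment (hg38) and MACS2 for narrow peaks, pooling a group's libraries and taking inputs as controls. The deposited lists give peak start, end and summit offset (other columns, in bp), a score, the fold enrichment (a ratio to local background) and −log10 p and −log10 q. The deposited score was not used. The highest q of any list was 0.0499. Chromosomes 1 to 22 and X were used.

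Genes came from GENCODE 44, with the TSS and first exon of the MANE Select transcript, or otherwise of the canonical one. Fragments at a summit and the expected background were recovered from the deposited fold and −log10 p, within 0.2% of the −log10 p, for all peaks but 1 of the HA control. On simulated data, 100% of 20000 fragment counts and 200 of 200 planted promoter summits were recovered. Counts have exact Poisson and shares exact binomial 95% intervals. Read depths per library were not used here, and differences between lists have no test.

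The members, gene lists and distances were chosen with earlier results of these data known. Named in full were, in each list, the 5 members of highest fold, the members with RBPJ and SOX2 promoter summits in the same cells, and the 3 highest other summits of the region, of which 1 is not reported here. Other members are named where a count is small, chosen after their values were seen. Sequences came from hg38, searched on both strands. Alternatives were other distances, any overlap of peak regions, TSS of any transcript, a −log10 q of at least 5, lists of equal length (25243 peaks), other flanks and a wider promoter window. Scripts ran under Python 3.11.15 with scipy 1.17.1, pandas 2.3.3, numpy 2.4.6 and matplotlib 3.10.9.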

Additional observations from a re-analysis of the deposited data

How the results depend on the processing

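Each count was recomputed under the alternatives, one choice at a time. Of 154 values, 109 stayed within 1.5 times the reported one and 45 moved further. Members with a promoter summit numbered 5 (RBPJ MB157 iSOX2), 4 (RBPJ MB157 iEV) and 7 (HA-SOX2) within 0.5 kb of the TSS. Within 5 kb they numbered 2 (SOX2 MB157R iEV), 11 (RBPJ MB157 iEV) and 18 (HA-SOX2), and with the TSS of any transcript SOX2 MB157R iEV had 2. At a −log10 q of at least 5, RBPJ MB157R iN1-ICD had 1 and SOX2 MB157R iEV 0. With lists of equal length there were 1 (RBPJ MB157R iN1-ICD), 1 (RBPJ MB157R iEV), 0 (SOX2 MB157R iEV) and 1 (HA-SOX2). Shares of all genes under these alternatives were not computed. First-exon counts became 2 (RBPJ MB157R iN1-ICD) with any overlap, and 5 (RBPJ MB157 iEV) and 0 (SOX2 MB157R iEV) at the stricter q.

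Summits across the cluster numbered 12 (RBPJ MB157 iSOX2), 11 (RBPJ MB157 iEV), 0 (SOX2 MB157R iN1-ICD) and 5 (SOX2 MB157R iEV) at the stricter q, at which RBPJ kept 6 in MB157R iN1-ICD and 9 in MB157R iEV. Without flanks, SOX2 had 0 in MB157R iN1-ICD and 5 in MB157R iEV, and with flanks of 100 kb SOX2 MB157R iEV had 13 and the HA control 1. With lists of equal length SOX2 MB157R iEV had 5 and HA-SOX2 9. Co-localized summits within 100 bp were 2 for RBPJ and 2 for SOX2 in MB157R iEV, and 4 for RBPJ and 4 for HA-SOX2 in MB157 iSOX2. In MB157 iSOX2 they were 7 and 7 within 250 bp, and 7 and 7 at the stricter q. RBPJ summits of MB157 iEV called again in MB157 iSOX2 were 8 within 100 bp and 6 at the stricter q. In MB157R iEV they were 1 within 100 bp, 2 within 250 bp and 2 at the stricter q. With any overlap of peak regions they were 16 in MB157 iSOX2 and 6 in MB157R iEV. Of the SOX2 summits of MB157R iEV, 0 were called again in MB157R iN1-ICD and 2 in HA-SOX2 at the stricter q. Within 1000 bases of the TSS on each side, 15 members held an RBPJ motif (28.3%, above the 23.8% of all genes, so the direction turned), 51 a SOX motif (96.2% against 73.8%), 8 an AP-1 motif (15.1% against 20.2%) and 13 the CTCF core (24.5% against 33.3%). The cause of these shifts was not tested.

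No paired analysis was possible because peaks were called on the pooled libraries of each group. Lists of unequal length and depth limit every comparison of counts, and a summit missing from a list shows only that it was not called there.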
